A study of Arabidopsis thaliana with 12 samples.

Results

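Glycosyl hydrolase family 9 (GH9) of Arabidopsis thaliana is the family of endoglucanases, enzymes that cut beta-1,4-glucan chains in the interior of the polymer. The gene table used for names lists 25 such genes, and 4 of them, GH9B8 (AT2G32990), GH9B11 (AT2G44560), GH9B12 (AT2G44570) and GH9B16 (AT4G38990), had a probe on the array that lists no other gene. These 4 are described here, of 691 named genes with a probe of their own and 3439 probes in all. They were selected on gene name and chosen with the deposited intensities of prors2 and wild-type samples already known, so the differences between the groups are given as a description with no test.

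Total RNA was measured by array in 6 samples of the prors2 mutant, which the labels describe as lacking prolyl-tRNA synthetase, and in 6 wild-type samples titled WT2. Both groups were kept in the dark overnight and are of ecotype Columbia 0, as far as the labels say. The labels name no tissue, plant age or array type. The grouping rests on the sample titles, since a second label names wild type as the source of every sample, prors2 included, and 0 probes list PRORS1 (AT5G52520), a gene for a prolyl-tRNA synthetase, so the mutant label was not checked on that gene. Nothing in the labels says that the samples of a group came from separate plants, and fewer cells of a type and less RNA per cell cannot be told apart in such samples.

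Plant GH9 enzymes fall into 3 structural classes. Class A enzymes, of which KORRIGAN is the best known, are anchored in a membrane and are needed for cellulose synthesis; class B enzymes are secreted to the cell wall and consist of a catalytic domain; class C enzymes carry an added carbohydrate-binding module. As a family they are known for trimming and loosening cellulose during cell expansion, fruit softening and organ shedding. All 4 genes with a probe of their own are of class B. In the TAIR10.1 gene table, GH9B11 and GH9B12 are direct neighbours on chromosome 2 and GH9B10 lies on the other side of GH9B11. GH9B16 lies on chromosome 4 beside GH9B17, and GH9B8 lies on chromosome 2 with no family member beside it.

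The 12 samples were not on one scale, and this touches every value below. Deposited intensities, in arbitrary units, ran from 0 to 100, which was the highest value in each of the 12 samples. The median over all probes lay between 0.24 and 0.403 in prors2 and between 0.062 and 0.0852 in wild type. Between 431 and 609 probes were listed at 0 in prors2 samples and between 746 and 926 in wild-type samples. The mean intensity was higher in prors2 for 78.0% of all probes. The level of each gene is therefore given both as deposited and as a percentile. The percentile is the place of its probe among all 3439 probes of the same sample, where a probe listed at 0 takes the middle place of all zeros. That place lay between 6.27 and 8.85 in prors2 and between 10.8 and 13.5 in wild type. Low percentiles are therefore not on an equal footing in the 2 groups. Samples with consecutive numbers resembled each other most, with correlations of normalized log2 values, over features above 0 in every sample, from 0.958 to 0.986 in prors2 and from 0.904 to 0.937 in wild type. Other pairs of samples of a group reached from 0.851 to 0.915 in prors2 and from 0.859 to 0.905 in wild type. These are correlations across features of the same arrays.

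All 4 GH9 genes had higher mean deposited intensities in prors2 than in wild type, but they did not move together by percentile. GH9B16 and GH9B11 also stood higher among the probes of their own sample in prors2, whereas GH9B12 stood lower there and GH9B8 varied widely in both groups. Of the 4 genes, 3 had every prors2 sample above every wild-type sample in deposited intensity, where 45.7% of all probes did the same and 2.53% lay wholly lower in prors2. By percentile this held for 1 of the 4, GH9B16, where 12.2% of all probes did the same and 22.8% lay wholly lower in prors2. These counts come from the comparison with which the genes were known, and nothing is read from them.

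GH9B16 was listed at 0 in every wild-type sample. In the prors2 samples its deposited intensity was 0.328 at the lowest, 0.451 at the median and 0.692 at the highest, against 0 in all 6 wild-type samples. The mean in prors2 was 0.482 ± 0.146 (SD, n = 6). With no wild-type value above 0, no fold difference can be given for this gene, and no normalized difference where values at 0 are left out. With zeros kept, a difference would rest on the pseudocount chosen and is not given.

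Among all 3439 probes, 51 (1.48%) were listed at 0 in every wild-type sample and above 0 in every prors2 sample, while 1 (0.0291%) showed the reverse. Among the 51, 10 list a single gene, and GH9B16 had the 5th highest mean prors2 intensity of the 51, whose means ran from 0.0509 to 0.865 with a median of 0.275. By percentile, GH9B16 lay between 56.6 and 71.0 in prors2, above the middle of the array, and between 10.8 and 13.5 in wild type, the place of the zeros. The groups did not overlap on either scale.

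GH9B11 had a deposited intensity of 0.264 at the lowest, 0.386 at the median and 0.522 at the highest in prors2, against 0, 0.00858 and 0.0579 in wild type. Every prors2 sample was above every wild-type sample, and 1 wild-type sample was listed at 0. By percentile the prors2 samples lay between 36.0 and 66.7 and the wild-type samples between 11.0 and 43.6. On that scale the groups overlapped through a single prors2 sample, number 2, which lay below wild-type sample 1.

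After quantile normalization, with values at 0 left out, GH9B11 had a mean log2 value of -2.16 ± 0.66 (SD, n = 6) in prors2 and of -5.26 ± 1.54 (SD, n = 5) in wild type. The difference was 3.10 ± 0.62 on the log2 scale (± standard error, here and below). These standard errors count the samples of a group as independent. With consecutive numbers as a random block the difference was 3.29 ± 0.99 for GH9B11, -0.51 ± 0.36 for GH9B12 and 0.24 ± 1.36 for GH9B8. The difference of 3.10 was higher than that of 98.9% of the 2684 features that could be fitted. The difference stayed positive in every setting that gave a value, from 2.19 with zeros kept and a pseudocount to 5.17 as deposited.

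GH9B12, the gene next to GH9B11, behaved differently on the 2 scales. Its deposited intensity was 0.224 at the lowest, 0.287 at the median and 0.362 at the highest in prors2, against 0.0836, 0.121 and 0.171 in wild type, with no overlap and no value at 0. The means were 0.286 ± 0.0477 in prors2 and 0.125 ± 0.0374 in wild type (SD, n = 6 each). By percentile it was lower in prors2, at 45.2 ± 11.4, than in wild type, at 59.4 ± 8.25 (SD, n = 6 each), and the groups overlapped.

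The log2 difference of GH9B12 was 1.24 ± 0.22 as deposited, below the median of 1.49 over all 2684 features. After quantile normalization it was -0.51 ± 0.29, where the median over all features was 0.09, and after centring on sample medians it was -0.35 ± 0.27. The direction of GH9B12 thus turned with the scale, and after normalization it was above that of 28.1% of features.

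GH9B8 lay low on the array in both groups, with values near 0 in several samples. Its deposited intensity was 0.0154 at the lowest, 0.097 at the median and 0.148 at the highest in prors2, against 0, 0.004 and 0.0837 in wild type, where 2 samples were listed at 0. The groups overlapped, since prors2 samples 1 and 2, at 0.0314 and 0.0154, lay below wild-type sample 4, at 0.0837. By percentile the prors2 samples lay between 14.4 and 36.4 and the wild-type samples between 10.8 and 55.4.

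After quantile normalization GH9B8 differed by -0.18 ± 1.18 on the log2 scale, over 6 prors2 and 4 wild-type values. As deposited the difference was 2.46 ± 0.98, and after centring on sample medians 0.84 ± 1.04. The sign of the GH9B8 difference turned with the scale and also when single samples were left out, and the standard error exceeded the difference in both scaled settings.

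**Figure D1:**
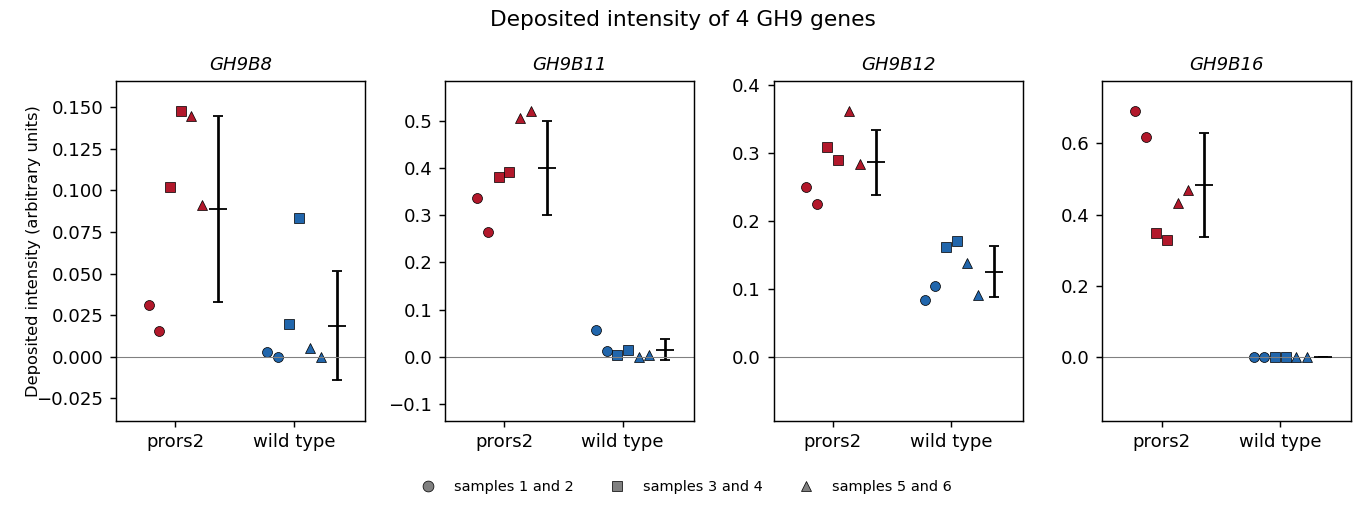
Deposited intensity in arbitrary units of GH9B8, GH9B11, GH9B12 and GH9B16 in each of the 6 prors2 samples (left, red) and 6 wild-type samples (right, blue), each panel with its own vertical axis. Symbols mark samples with consecutive numbers, and bars give the mean and SD with values at 0 counted as 0. GH9B16 sits between 0.328 and 0.692 in prors2 and at 0 in wild type, and only GH9B8 has groups that overlap.

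**Figure D2:**
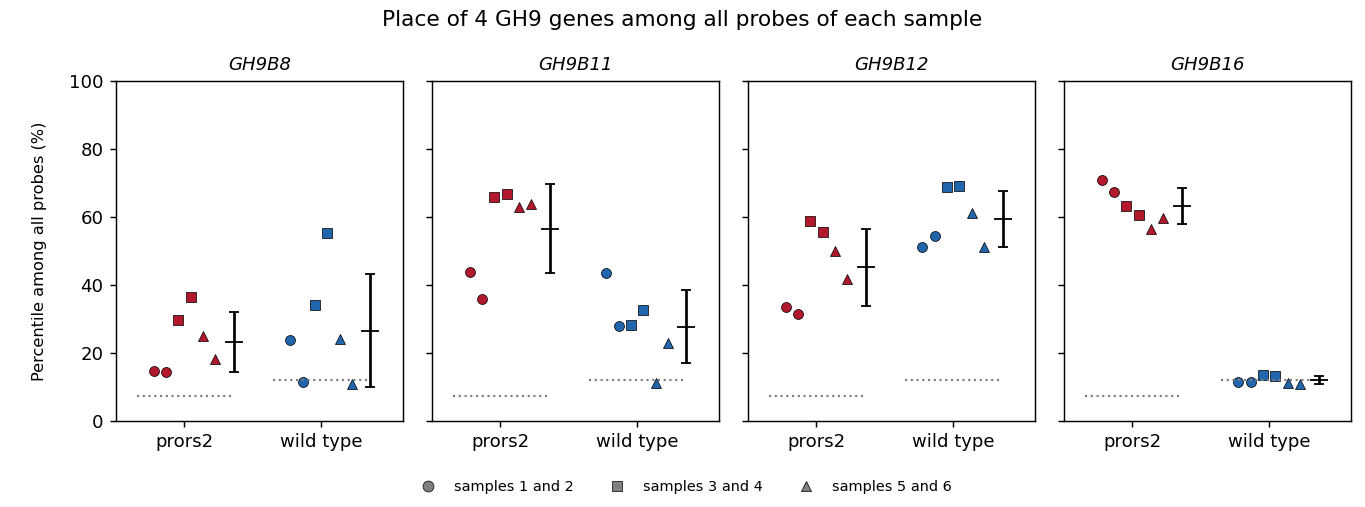
Percentile of the 4 genes among all probes of the same sample, with prors2 on the left and wild type on the right of each panel. Bars give the mean and SD, and dotted lines mark the mean place of a probe listed at 0 in that group. GH9B16 is higher in prors2 with no overlap, GH9B11 is higher with an overlap of single samples, and GH9B12 is lower on average, at 45.2 in prors2 and 59.4 in wild type.

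Within prors2, samples 1 and 2 stood apart from the other 4 for each of the genes, and here GH9B16 ran against the other 3. Samples 1 and 2 had the lowest percentiles of GH9B11, at 43.9 and 36.0, where the other 4 prors2 samples lay between 63.0 and 66.7. They also had the lowest percentiles of GH9B12, at 33.5 and 31.5, against 41.6 to 58.8 in the other 4, and of GH9B8, at 14.8 and 14.4, against 18.3 to 36.4. For GH9B16 the same samples were the highest, at 71.0 and 67.4, against 56.6 to 63.2 in the other 4. Between samples 3 and 4 and samples 5 and 6 it did not run against them, since both of samples 3 and 4 had higher percentiles than both of samples 5 and 6 for each of the 4 genes. The share of all probes with samples 1 and 2 wholly above or wholly below the other 4 was not worked out. Samples with consecutive numbers may also not be independent, so nothing is read from these orders about the genes.

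Deposited intensities gave the same order for these 2 samples. Their mean was 0.655 for GH9B16, where the pairs 3 and 4 and 5 and 6 had 0.339 and 0.451, and 0.30 for GH9B11, where those pairs had 0.386 and 0.514. Samples 1 and 2 had the highest array medians in prors2, 0.403 and 0.387, and samples 3 and 4 the lowest, 0.24 and 0.244. The part of this in the genes' values was not tested.

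Samples 3 and 4 had the highest percentiles of GH9B12 and GH9B8 in both groups. For GH9B12 they were at 58.8 and 55.6 in prors2, above the other 4, and at 68.7 and 69.2 in wild type, against 51.3 to 61.3. For GH9B8 they were at 29.7 and 36.4 in prors2, above the other 4, and at 34.0 and 55.4 in wild type, against 10.8 to 24.1. In deposited intensity this held in wild type but not in prors2, where sample 5 had 0.362 for GH9B12, against 0.309 and 0.289 in samples 3 and 4, and 0.145 for GH9B8, above the 0.102 of sample 3. Samples 3 and 4 had the lowest array medians in wild type too, 0.062 and 0.0646, and whether the scale of these samples bears on both genes was not tested. The share of all probes with samples 3 and 4 highest in both groups was not worked out, so nothing is read from this order.

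The differences of the 3 genes that could be fitted are set among those of all 2684 tested features in the plot of log2 differences. After quantile normalization 45.6% of all features passed the test in either direction (limma, adjusted p under 0.05), and 24.9% of the 2396 features that could be fitted with consecutive pairs averaged. GH9B11 lay in the upper tail on both scales, above 99.2% of features as deposited and 98.9% after normalization. GH9B8 and GH9B12 lay inside the bulk of the features on both scales, above 73.3% and 42.1% as deposited and above 39.9% and 28.1% after normalization.

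**Figure D3:**
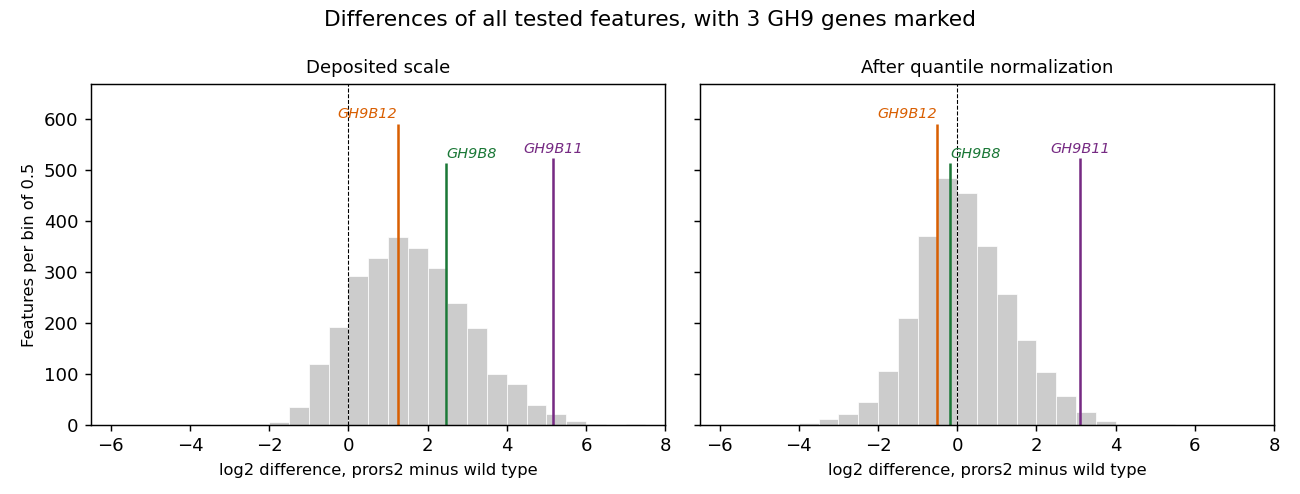
Number of features per bin of 0.5 of the log2 difference, prors2 minus wild type, on the deposited scale (left) and after quantile normalization (right), for the 2684 tested features. Coloured lines mark GH9B8, GH9B11 and GH9B12, and the dashed line marks 0. GH9B11 lies in the upper tail in both panels, at 5.17 and 3.10, while GH9B12 moves from 1.24 on the deposited scale to -0.51 after normalization.

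Other probes of the family exist on the array but cannot be assigned to a gene. There were 7 probes that list from 2 to 4 genes, at least 2 of them GH9 genes, and 2 of these probes list one or more of the 4 genes described here. The mean percentile was higher in prors2 for 6 of the 7. The share of all probes with a higher mean percentile was not worked out, so nothing is read from this count. In deposited intensity 5 of the 7 had every prors2 sample above every wild-type sample, where 45.7% of all probes did the same, and by percentile 0 of the 7 did, where 12.2% of all probes did the same.

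The 2 shared probes that list a gene described here were low in wild type. So were the single-gene probes of GH9B11 and GH9B16, but not that of GH9B12, at 0.0836 to 0.171 in wild type. The probe that lists GH9B11 and GH9B12 beside other family members (shared probe 1) had intensities of 0.162 at the lowest, 0.25 at the median and 0.362 at the highest in prors2, against 0, 0.0051 and 0.0335 in wild type, where 3 samples were listed at 0. The probe that lists GH9B16 beside other family members (shared probe 7) had 0.0121, 0.178 and 0.431 in prors2, against 0, 0 and 0.00231 in wild type, where 5 samples were listed at 0. Like GH9B16, shared probe 7 was highest in prors2 samples 1 and 2. Which of the listed genes gave these signals cannot be told from the files, and how far related genes share signal on the single-gene probes was not tested.

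Of the other shared probes, 2 were listed at 0 in every wild-type sample and in 2 of the 6 prors2 samples. Shared probe 3 went the way of GH9B12, with a mean percentile of 39.9 in prors2 and 54.0 in wild type, and an intensity of 0.243 ± 0.0676 in prors2 and 0.0983 ± 0.043 in wild type (SD, n = 6 each). It was above 0 in all 12 samples.

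**Figure D4:**
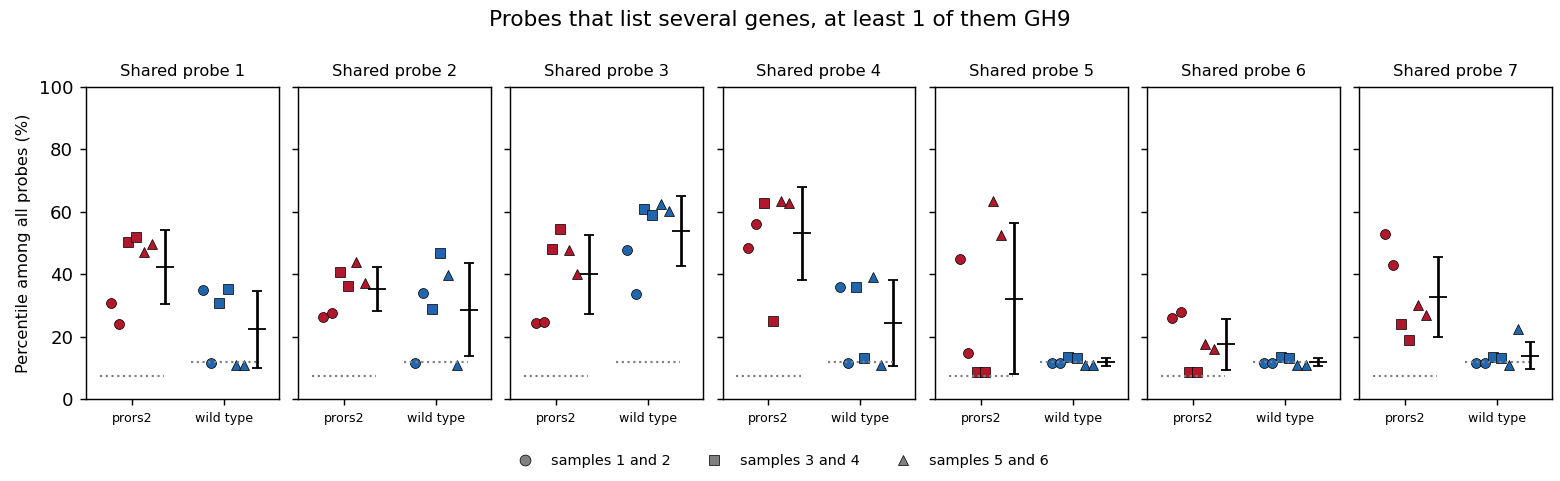
Percentile among all probes of the same sample for the 7 probes that list several genes with at least 1 GH9 gene, with prors2 on the left and wild type on the right of each panel. Bars give the mean and SD, and dotted lines mark the mean place of a probe listed at 0. The mean is lower in prors2 for shared probe 3 and higher in the other panels, and the groups overlap in every panel.

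The genes with a probe of their own most like each GH9 gene in place on the array were looked up. The measure was the mean absolute difference in percentile over the 12 samples. Since the genes were picked on these percentiles, their likeness in percentile follows from the choice. Nearest to GH9B16 were AT4G31210, AT1G05340 and AT2G41950, at 5.63, 5.93 and 6.48 percentile points, where the median over all other named probes was 29.7. AT1G05340 was, like GH9B16, listed at 0 in all wild-type samples, with a mean intensity of 0.428 ± 0.143 in prors2 (SD, n = 6). Nearest to GH9B11 were AT3G50880, AT3G44570 and AT4G08630, at 5.75, 7.26 and 8.65 points (median 27.0). AT3G50880 had mean percentiles of 54.4 in prors2 and 28.5 in wild type, against 56.5 and 27.6 for GH9B11.

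Nearest to GH9B12 were AT1G04420, DAL1 and AT2G23390, at 4.90, 5.08 and 5.11 points (median 25.1). All 3 had a lower mean percentile in prors2, which follows from the choice. They also had a higher mean intensity there, as did 78.0% of all probes. Nearest to GH9B8 were AT1G77730, AT4G03090 and AT5G19900, at 6.51, 7.33 and 7.73 points (median 26.1). GH9B8 had mean percentiles of 23.1 ± 8.87 in prors2 and 26.6 ± 16.6 in wild type (SD, n = 6 each). In none of these lists did another GH9 gene appear among the nearest 3. Only 4 of the 691 named genes with a probe of their own are GH9 genes, so nothing is read from this.

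Few other genes of the plant cell wall had a probe of their own. Of 8 lists of cell wall genes, which cover the rest of the GH9 family, cellulose synthases and related proteins, other cellulose synthesis proteins, xyloglucan and xylan enzymes, expansins, pectin enzymes, other glycosidases, and structural proteins with laccases, 1 gene outside the 4 was measured by a single-gene probe. This was CSLA01 (AT4G16590) of the cellulose synthase-like A family, whose members make mannan backbones. Its deposited intensity was 0.0793 at the lowest, 0.0988 at the median and 0.128 at the highest in prors2, against 0.00601, 0.0354 and 0.096 in wild type.

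The groups of CSLA01 overlapped, and all 12 values were above 0. After quantile normalization the log2 value of CSLA01 differed by -0.62 ± 0.47 (limma, adjusted p = 0.292), so that 0 of 1 cell wall genes passed in either direction, where 45.6% of all features passed. With consecutive numbers as a random block the standard error was 0.94 (limma, adjusted p = 0.662), and with pairs averaged CSLA01 did not pass either (limma, adjusted p = 0.306), where 24.9% of features did. As deposited the difference was 1.80 (limma, adjusted p = 0.00862), and the direction of CSLA01 turned with the scale, as did that of GH9B12. With zeros kept and a pseudocount it was -1.58 and passed as lower (limma, adjusted p = 0.00434).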

How the data were processed

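The authors deposited 1 intensity per probe and sample, on a linear scale. Background subtraction, scaling and spot averaging of these values are not given in the sources at hand. Groups and sample numbers came from the titles.

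Per the platform annotation, 692 of the 3439 probes list 1 gene, 870 several and 1877 are not listed. Of the 692, 690 matched the TAIR10.1 gene table. Probes with several genes were used only where the text says so, without naming the source of their signal.

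Zeros were treated as missing. The other values were taken to log2 and quantile-normalized, and probes of one gene averaged. Features above 0 in at least 3 samples of both groups (2684) were fitted, two-sided, by limma 3.58.1 (lmFit, eBayes) under R 4.3.3, with Benjamini-Hochberg adjustment over them and a threshold of 0.05. Of the 4 GH9 genes 3 passed this filter. P-values cover only differences between these samples, possibly technical ones, and would be too small if samples with consecutive numbers came from one RNA. On simulated data with 200 features changed, the fit recovered 78% of 4-fold and 41% of 2-fold changes, and 8.46% of its calls were false. The simulated samples were independent, so likeness of consecutive numbers was not covered. Values were simulated on the normalized scale, so neither the normalization nor the scale difference between the groups was covered. As many features were changed up as down, 200 of 2684 in all, whereas 45.6% of features passed in the data. These rates therefore need not hold for the fit of the real samples. The number of arrays limits the precision.

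The genes and lists were chosen with earlier results of these data known. The text names the 4 genes, up to 4 tested genes of each cell wall list with the smallest adjusted p, and the 3 genes nearest in percentile to each GH9 gene. Alternatives covered scale, zeros, filters, sample numbers, variance model and left-out samples.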

Additional observations from a re-analysis of the deposited data

Results flagged for a closer look

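GH9B16 had no place in the fit, because its wild-type values were 0 throughout, while its mean deposited intensity in prors2 was 0.482. Of 18 groups of 6 values of the GH9 genes and CSLA01, counted on more than 1 scale, 2 held 1 sample far off the rest. Both were in deposited intensity. About 1 in 20 would do so by chance. This is a rough guide, since the scales share samples and some values lie at or near 0. Wild-type sample 4 had a deposited intensity of 0.0837 for GH9B8, where the other 5 lay between 0 and 0.0198. Without that sample the normalized log2 difference of GH9B8 was 0.65. Wild-type sample 1 had 0.0579 for GH9B11, where the other 5 lay between 0 and 0.0141. Without that sample the normalized log2 difference of GH9B11 was 3.59. Neither sample stood apart in this way by percentile.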

How the results depend on the processing

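Against 671 features called higher and 554 lower in prors2, no normalization gave 1869 and 144, median centring 905 lower, consecutive pairs averaged 342 and 254, pairs as a random block 358 and 313, and numbers 5 and 6 left out 444 higher. Leaving out single samples gave 604 to 653 higher and 506 to 542 lower. GH9B11 was 5.17 with no normalization and 4.42 without numbers 1 and 2 of both groups, and 2.67 to 3.59 with single samples left out. It had no value with the dimmest 25% left out or with only features above 0 in all samples. GH9B12 was 1.24 with no normalization and -0.65 to -0.37 with single samples left out. GH9B8 turned to 2.46 with no normalization, 0.84 with median centring, 0.24 with pairs as a random block and 0.30 without numbers 1 and 2, and was -0.97 to 0.65 with single samples left out (0.20 and 0.46 without prors2 samples 1 and 2, 0.06 and 0.65 without wild-type samples 3 and 4). GH9B8 had no value with consecutive pairs averaged or without numbers 3 and 4 of both groups. Nor did it have one with the dimmest 25% left out or with only features above 0 in all samples. GH9B16 had no value in any setting that left out zeros. CSLA01 turned to 1.80 with no normalization, where it was the 1 cell wall gene called higher, and to 0.22 with median centring; it was the 1 called lower with the pseudocount (-1.58) and without wild-type sample 4 (-0.98), and -0.33 at the highest with single samples left out. Beyond what each alternative changes by construction, the cause was not tested. Whether the same numbers pair samples across the groups is not given in the labels; the correlation of deviations between same-numbered samples was positive for 6 of 6 numbers, 0.053 to 0.164, but over 0.1 for 4, and 8 of 12 samples correlated best with their own number. With the number as a replicate block 669 features were called higher and 540 lower, GH9B11 was 3.03 ± 0.74 (standard error), GH9B12 -0.51 ± 0.17 (0.29 without it) and GH9B8 0.50 ± 0.48. Within numbers GH9B12 was lower in prors2 in 6 of 6, by percentile and by normalized value. By percentile CSLA01 was also lower in 6 of 6, GH9B11 and GH9B16 were higher in 6 of 6, and GH9B8 was higher in 3. The share over all features was not worked out and consecutive numbers may not be independent, so nothing is read from these counts. Mean percentiles with single samples left out were 20.4 to 24.8 in prors2 and 20.8 to 29.7 in wild type for GH9B8, 54.5 to 60.6 and 24.5 to 31.0 for GH9B11, 42.4 to 47.9 and 57.4 to 61.0 for GH9B12, and 61.5 to 64.4 and 11.6 to 12.2 for GH9B16. Values close to 0 limit what these arrays can show for GH9B8 and for GH9B11 in wild type.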
